A study of Mus musculus with 6 samples.

Results

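The enzymes of de novo nucleotide synthesis were examined as a set of 10 genes, chosen by name: Cad, Dhodh and Umps for the pyrimidine route, Ppat, Gart, Pfas, Paics, Adsl and Atic for the purine route to IMP, and Impdh2 for the branch to GMP. All 10 were listed among the 22651 genes of the RNA-seq tables, and all 10 had enough reads to be tested. The libraries came from whole telencephalon of newborn mice at postnatal day 0, with 3 animals per genotype. The control animals, here called WT, were TSC1 flox/flox;Emx1 +/+ littermates, so that they carried the floxed gene without the recombinase. The mutant animals, here called TSC1, were TSC1 flox/flox;Emx1-cre/+, and both groups were therefore homozygous for the floxed allele. Cre was expressed from the Emx1 locus in the embryonic dorsal cortex, and cells of other origin in the dissected tissue kept Tsc1.

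Tsc1 encodes a subunit of the complex that holds back mTORC1, the kinase complex that couples nutrient and growth factor signals to biosynthesis. De novo synthesis builds the pyrimidine ring from glutamine, bicarbonate and aspartate, and builds the purine ring stepwise on phosphoribosyl pyrophosphate (PRPP) with glycine, glutamine, aspartate and formyl groups carried by folate. mTORC1 is known to act on these routes at more than one level: its downstream kinase S6K1 phosphorylates the Cad protein, and the transcription factor ATF4 raises mitochondrial folate enzymes that supply formyl units. Dividing progenitors in the newborn forebrain use the products for DNA and RNA. The comparison of TSC1 with WT asked which of these enzymes differed in mRNA level when mTOR signalling was released in the cortex.

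Total expected counts per library ranged from 14119365 to 17772865, so that 3 counts corresponded to 0.169 to 0.212 CPM. TSC1 replicate 3 stood apart from the other mutant libraries: on the first principal component, which held 47.7% of the variance, it lay at -3.95, while TSC1 replicates 1 and 2 lay at 26.5 and 30.3 and the WT libraries between -26.3 and -7.43. Tsc1 itself was measured at 50.2, 32.0 and 28.4 TPM (transcript level, corrected for length and scaled to a fixed total per library) in WT and at 27.1, 21.7 and 22.4 TPM in TSC1. The groups did not overlap, but the log2 fold change of -0.66 (SE 0.18) had an adjusted p of 0.09998 in edgeR and of 0.00321 in DESeq2. The value covers the whole gene, including exons that Cre does not remove. Markers of telencephalon were present in every library, with summed levels of 1598 to 1722 TPM in WT and 1680 to 2079 TPM in TSC1.

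Ppat and Paics, 2 genes of the purine route, lie side by side on chromosome 5 and overlap at their starts. Their RefSeq start sites are 276 bases apart on opposite strands, and the annotated exons share 272 bases, which are 6.15% of the exonic bases of Ppat and 8.67% of those of Paics. The upstream windows of both are shown because each lies inside the other gene, together with those of Atic and Impdh2, since Paics, Atic and Impdh2 were the members whose windows held the letters CACGTG. These letters are the canonical E-box bound by MYC family factors, and they read the same on both strands. Each line gives the 250 bases upstream of the start site from RefSeq (GRCm38.p6), 5′ to 3′ on the strand of the gene, with CACGTG in capitals. The windows are chr5:76951579-76951828 on the minus strand for Ppat, chr5:76951052-76951301 on the plus strand for Paics, chr1:71556906-71557155 on the plus strand for Atic and chr9:108560186-108560435 on the plus strand for Impdh2.
Ppat: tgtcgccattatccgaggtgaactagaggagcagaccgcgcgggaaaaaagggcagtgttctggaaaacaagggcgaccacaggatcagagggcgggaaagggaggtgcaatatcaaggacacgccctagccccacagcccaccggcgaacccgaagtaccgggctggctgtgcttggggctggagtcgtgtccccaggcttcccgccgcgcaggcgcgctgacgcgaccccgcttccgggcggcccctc
Paics: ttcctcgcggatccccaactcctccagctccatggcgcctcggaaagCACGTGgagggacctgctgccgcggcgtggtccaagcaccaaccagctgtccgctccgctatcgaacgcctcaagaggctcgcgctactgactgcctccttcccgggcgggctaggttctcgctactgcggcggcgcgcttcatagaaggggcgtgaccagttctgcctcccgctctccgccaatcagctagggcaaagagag
Atic: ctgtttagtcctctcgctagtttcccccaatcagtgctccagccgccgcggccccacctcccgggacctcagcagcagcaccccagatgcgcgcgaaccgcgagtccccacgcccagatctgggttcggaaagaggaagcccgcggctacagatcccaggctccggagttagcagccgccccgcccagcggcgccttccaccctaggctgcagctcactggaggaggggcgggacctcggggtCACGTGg
Impdh2: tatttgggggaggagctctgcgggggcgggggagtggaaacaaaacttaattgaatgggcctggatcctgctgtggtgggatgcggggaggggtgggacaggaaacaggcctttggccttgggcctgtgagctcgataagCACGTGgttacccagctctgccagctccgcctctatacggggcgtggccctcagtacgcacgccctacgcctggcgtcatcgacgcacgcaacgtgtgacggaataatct

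CACGTG began at position -203 from the start site of Paics, -7 from that of Atic and -110 from that of Impdh2. The start sites are those of RefSeq: in GENCODE, Impdh2 begins further upstream, so that its match lies inside the gene as annotated there, and the match of Atic spans the GENCODE start. Over windows of 300 bases, which reached from 250 bases upstream to 50 bases into the gene, 3 of the 8 members with a window held it, against 8.09% of the 27025 genes and 7.15% of all 32851 windows. The letters TGATGNAA, a form of the composite element bound by ATF4 with a partner, were searched on both strands. They were in none of the 8 windows, against 4.51% of genes, so that 0 of 8 is not a departure from that share. Of the 5 related genes called (given below), 4 had a window, and 0 of these held either motif. Windows were used for Cad, Umps, Ppat, Gart, Paics, Adsl, Atic and Impdh2, and not for Dhodh and Pfas. These matches describe letters in the windows and say nothing of binding in this tissue.

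By level, the set spanned a range of 13.0-fold in mean TPM over all 6 libraries. Paics was the most abundant at 169.7 TPM, followed by Atic at 68.8, Gart at 37.7, Umps at 30.5 and Adsl at 24.4 TPM, and no library of one of these 5 overlapped with a library of its neighbour in the order. Ppat at 19.4, Cad at 16.7, Pfas at 16.2, Impdh2 at 13.7 and Dhodh at 13.1 TPM followed, and from Adsl downward each gene overlapped with the next. The order thus did not follow the sequence of steps, since Ppat, which catalyses the committed first step, lay below most later enzymes. Summed over the 3 pyrimidine genes, WT libraries held 60.8 ± 3.16 TPM (SD, n = 3) and TSC1 libraries 59.6 ± 1.83 TPM (SD, n = 3), a ratio of 0.981. Summed over the 6 genes of the route to IMP, WT libraries held 332.4 ± 14.9 TPM (SD, n = 3) and TSC1 libraries 340.1 ± 20.1 TPM (SD, n = 3), a ratio of 1.02. The most abundant genes weigh most in such sums, here Paics with 169.7 TPM, so the ratio says little of the less abundant genes.

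**Figure D1:**
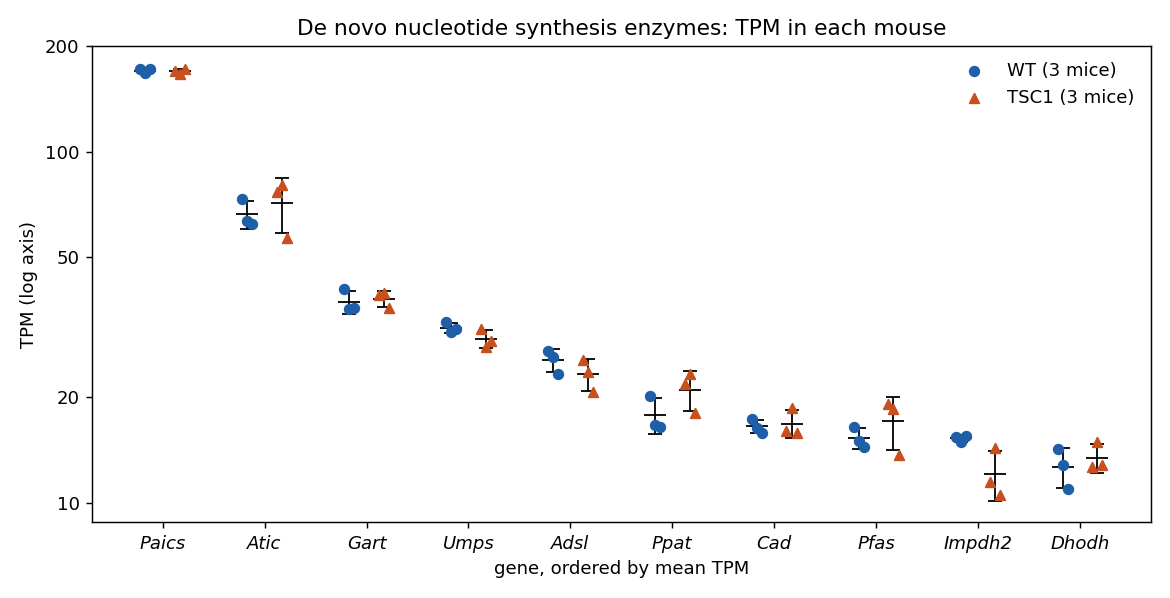
Level of each of the 10 de novo synthesis genes in every library, in TPM on a log axis, with WT as circles and TSC1 as triangles, a bar at each group mean and error bars of 1 SD (n = 3). The WT and TSC1 points of Impdh2 are the only ones that do not overlap, with TSC1 libraries at 10.5 to 14.3 TPM and WT libraries at 14.9 to 15.5 TPM.

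None of the 10 members passed the test in either direction at an adjusted p of 0.05, by the quasi-likelihood test of edgeR, adjusted over all 13969 genes tested. Among all genes, 0.859% were called higher and 0.659% lower, or 1.52% in either direction, so that 0 of 10 is not a departure from the background. At an unadjusted p below 0.05, 1 of 10 members was found, against 18% of all genes, and DESeq2 found 0 members at that level. It was Impdh2, on the lower side, and 0 members passed that level on the higher side, against 9.04% of all genes. This count rested on single libraries: without TSC1 replicate 3 it was 3 members, all higher (Ppat, Pfas and Atic), without WT replicate 1 it was Ppat alone, and without WT replicate 2, WT replicate 3 or TSC1 replicate 1 it was 0. The share of all genes at that level in these fits is not given here, so 18% and 9.04% are not their background. The share of genes called also moved, to 5.68% without TSC1 replicate 3 and 3.18% without WT replicate 1. It was 0.206% to 0.262% without any other single library. The groups overlapped for all members except Impdh2, where TSC1 was lower. Over all genes, they did not overlap with TSC1 lower for 10.3% and with TSC1 higher for 12.3%. In the fit, 6 members lay above 0 and 4 below, against 49.3% of all genes above 0, with a median log2 fold change of 0.0031, beside -0.0027 over all genes tested. Being whole-tissue RNA, these values cannot tell fewer cells of a type from less RNA per cell.

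In the pyrimidine route, the data placed narrow limits on a change of Cad and Umps mRNA, and wider ones on Dhodh. Cad, at chr5:31054780-31078479, encodes the large protein that carries out the opening steps, from the formation of carbamoyl phosphate to dihydroorotate. Its level was 17.3, 16.4 and 15.9 TPM in WT and 16.0, 18.6 and 15.8 TPM in TSC1. The mutant libraries lay on both sides of the WT libraries, and the log2 fold change was 0.0020 (SE 0.091, adjusted p = 0.993 in edgeR), with a 95% interval of -13.1% to 15.4%. Dhodh, at chr8:109591343-109608673, encodes the mitochondrial dehydrogenase that makes orotate. It was measured at 14.3, 12.8 and 10.9 TPM in WT and 12.6, 14.9 and 12.8 TPM in TSC1. The groups overlapped, with a log2 fold change of 0.057 (SE 0.14, adjusted p = 0.861) and an interval of -16.0% to 28.8%. Umps, at chr16:33954782-33967038, encodes the enzyme that turns orotate into UMP, the parent of the other pyrimidine nucleotides. It lay at 32.7, 30.7 and 31.4 TPM in WT and 31.3, 27.7 and 29.0 TPM in TSC1. One mutant library lay within the WT range and the others under it, and the log2 fold change of -0.13 (SE 0.081, adjusted p = 0.421) had an interval of -19.8% to 3.40%.

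In the purine route to IMP, Paics and Gart had the narrowest intervals around 0. Paics, at chr5:76951307-76967509, encodes a carboxylase and synthetase of the middle of the route. It stood at 172.0, 167.0 and 171.6 TPM in WT and 169.7, 166.2 and 171.8 TPM in TSC1. The replicates of each group varied by under 2% of their mean (coefficients of variation of 1.62% and 1.66%), and the log2 fold change was -0.037 (SE 0.061, adjusted p = 0.787), with an interval of -11.4% to 7.19%. Gart, at chr16:91621186-91646952, encodes a trifunctional protein that includes a folate-dependent formyl transfer. It measured 40.6, 35.6 and 35.8 TPM in WT and 39.0, 39.6 and 35.9 TPM in TSC1. The mutant libraries lay inside the WT range, and the log2 fold change was 0.0042 (SE 0.080, adjusted p = 0.986), with an interval of -11.5% to 13.7%. Adsl, at chr15:80948490-80970946, encodes adenylosuccinate lyase, which serves both the route to IMP and the step from IMP to AMP. Its levels were 27.1, 26.0 and 23.3 TPM in WT and 25.6, 23.6 and 20.7 TPM in TSC1. Its groups overlapped, and the log2 fold change was -0.16 (SE 0.096, adjusted p = 0.421), with an interval of -22.9% to 4.04%.

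Ppat, Pfas and Atic shared a pattern by library that differed from that of Paics: TSC1 replicates 1 and 2 lay above every WT library, and TSC1 replicate 3 did not. They are set together here after their values were seen, and the share of all genes with this pattern was not counted. TSC1 replicate 3 also stood apart on the first principal component of all genes tested. The pattern is therefore not shown to be particular to these members. Ppat, at chr5:76913249-76951578, encodes the amidotransferase that commits PRPP to purine synthesis. Its level was 20.1, 16.7 and 16.5 TPM in WT and 21.8, 23.2 and 18.0 TPM in TSC1. It had the largest positive value of the set, a log2 fold change of 0.21 (SE 0.12, adjusted p = 0.371), with an interval of -3.23% to 39.1%. Pfas, at chr11:68985697-69008460, encodes the glutamine-using synthetase after the first formyl transfer. It lay at 16.4, 14.97 and 14.5 TPM in WT and 19.1, 18.6 and 13.7 TPM in TSC1. TSC1 replicate 3 was thus the lowest of all 6 libraries, and the log2 fold change of 0.14 (SE 0.12, adjusted p = 0.590) had an interval of -8.86% to 32.6%. Atic, at chr1:71557150-71579631, encodes the bifunctional enzyme of the last formyl transfer and the closure to IMP. It was at 73.5, 63.5 and 62.1 TPM in WT and 76.7, 80.4 and 56.8 TPM in TSC1. Its mutant replicates had the widest relative spread among the members, with a coefficient of variation of 17.8%, and the log2 fold change was 0.074 (SE 0.12, adjusted p = 0.788), with an interval of -13.0% to 27.3%.

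Without TSC1 replicate 3, the log2 fold changes of these genes were 0.31 for Ppat, 0.27 for Pfas and 0.21 for Atic, with adjusted p = 0.148, 0.125 and 0.200 in edgeR. None was called, although the same fit called 799 genes, or 5.68% of those tested. These genes were grouped because TSC1 replicate 3 did not lie above WT. Higher values without that library follow from the grouping and are not a separate result. Across the set, TSC1 replicate 3 was the lowest mutant library for 7 of 10 members, against 42.8% of all genes. WT replicate 1 was the highest WT library for 9 of 10 members, against 52.4% of all genes. The members shared these libraries and their normalization, so the counts do not represent independent observations.

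**Figure D2:**
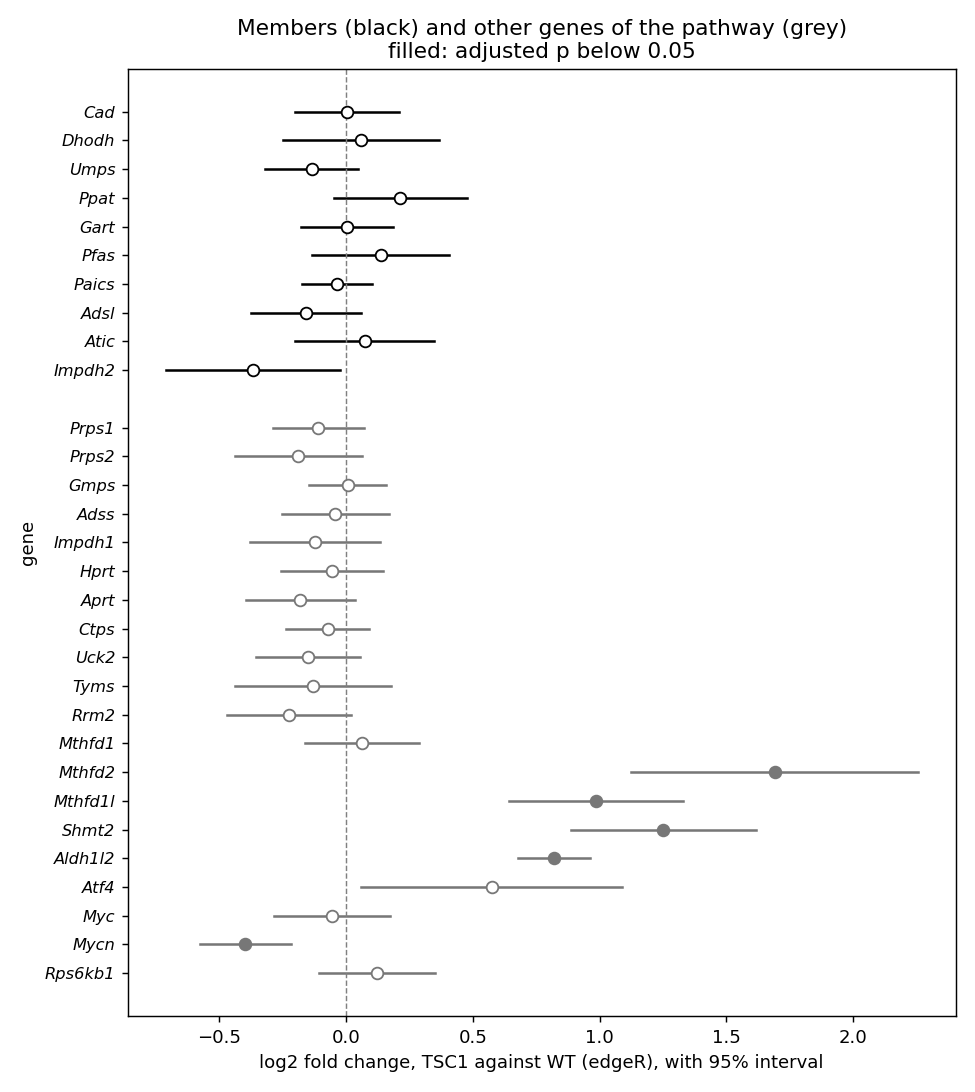
Log2 fold change of TSC1 against WT from edgeR, for the members (black) and for other named genes of the pathway (grey), with a horizontal bar for the 95% interval, a dashed line at 0 and filled points for genes called. Intervals of 9 members include 0, and that of Impdh2 runs from -0.71 to -0.025.

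Impdh2, at chr9:108560286-108565584, encodes the IMP dehydrogenase isoform of growing cells, the rate-limiting enzyme for GMP. It lay at 15.4, 14.9 and 15.5 TPM in WT and 11.5, 14.3 and 10.5 TPM in TSC1, or 141, 155 and 130 counts against 97, 115 and 97 counts. Every mutant library lay below every WT library, as it did for 10.3% of all genes. The log2 fold change of -0.37 (SE 0.15) had an unadjusted p of 0.0379 and an adjusted p of 0.247 in edgeR, so that Impdh2 was not called lower, and its interval was -39.0% to -1.75%. Over the 15 alternative settings the log2 fold change lay between -0.51 and -0.29 and the adjusted p between 0.204 and 0.509. Impdh2-ps, a processed pseudogene on chromosome 8, matches the Impdh2 transcript at 99.7% of 1545 aligned bases. Reads of the pseudogene and of Impdh2 may not be told apart, and the level of Impdh2 is uncertain for that reason. Impdh1, the other isoform, had a higher level, with 64.4, 66.1 and 61.5 TPM in WT and 51.9, 69.6 and 58.3 TPM in TSC1. Its groups overlapped, with a log2 fold change of -0.12 (adjusted p = 0.610) and an interval of -23.0% to 9.64%.

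Members also share sequence or exons with other genes. Paics matches the processed pseudogenes Gm4797 and Gm19241 at 90.04% of 1285 and 91.2% of 904 aligned bases. The library kit does not mark strand, so that reads in exons shared with an antisense gene belong to either gene. Such overlap covered 19.7% of the exonic bases of Gart (with Gm15964), 6.11% of those of Umps (with Gm15829) and 1.56% of those of Impdh2 (with Ndufaf3). For Ppat and Paics, which overlap each other on opposite strands, it covered 6.15% and 8.67%. Paics was the more abundant of this pair, at 169.7 against 19.4 TPM. The expected counts of the 10 members were whole numbers in every library.

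**Figure D3:**
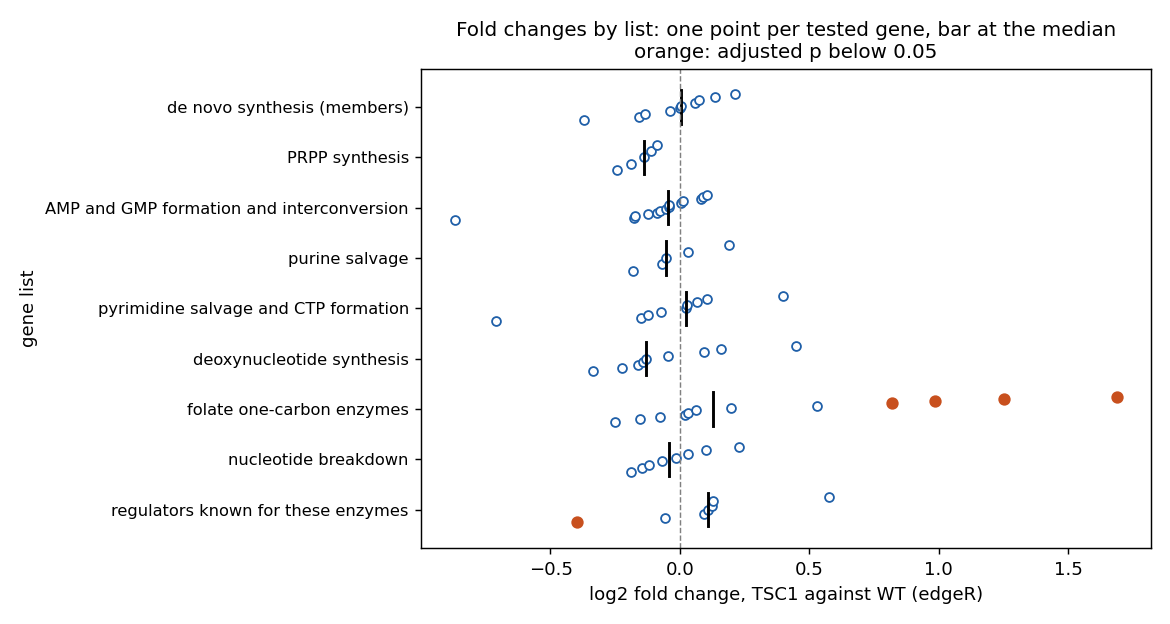
Log2 fold change of TSC1 against WT for the de novo synthesis members and for each fixed list of related nucleotide genes, 1 point per tested gene, a bar at each list's median and filled orange points for genes called at an adjusted p of 0.05. The called genes are 4 folate enzymes above 0 and Mycn below 0.

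Around the set, 79 genes of related steps were in the tables and 69 were tested. Of these, 4 were called higher and 1 lower (beside 0.859% and 0.659% of all genes), and 64 were not called. The lists were chosen with earlier results of these data known, so these shares do not serve as a test of the counts. The 4 that rose all belong to the folate list, of which 12 genes were tested, and all 4 encode mitochondrial enzymes. Other genes of the list with mitochondrial products were not called: Mthfd2l, a paralogue of Mthfd2, had means of 20.3 and 17.4 TPM and the lowest log2 fold change of the list at -0.25 (adjusted p = 0.322), Mtfmt had 0.20 (adjusted p = 0.396) and the folate carrier gene Slc25a32 had 0.019 (adjusted p = 0.966). Mthfd2, the mitochondrial methylenetetrahydrofolate dehydrogenase, was at 16.2, 14.6 and 15.2 TPM in WT and 63.7, 59.6 and 29.1 TPM in TSC1. The mutant libraries lay well above the WT libraries, TSC1 replicate 3 least so, with a log2 fold change of 1.69 (SE 0.25, adjusted p = 0.0203). Shmt2, which transfers the serine carbon to folate in mitochondria, was at 33.2, 34.6 and 34.01 TPM in WT and 73.5, 68.0 and 105.4 TPM in TSC1. Here TSC1 replicate 3 was the highest of the mutant libraries, and the log2 fold change was 1.25 (SE 0.16, adjusted p = 0.0106).

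Mthfd1l, which releases formate from formyl-tetrahydrofolate in mitochondria, was at 7.69, 7.34 and 6.29 TPM in WT and 12.4, 13.5 and 17.02 TPM in TSC1. Its log2 fold change was 0.99 (SE 0.15, adjusted p = 0.0222), and the groups did not overlap. Aldh1l2, the mitochondrial formyltetrahydrofolate dehydrogenase, had 39.6, 36.3 and 35.1 TPM in WT and 68.7, 65.1 and 65.8 TPM in TSC1. Its log2 fold change of 0.82 (SE 0.063, adjusted p = 0.000846) was called in all 15 alternative settings. The other 3 lost their call when single libraries were left out. Without WT replicate 2 and without WT replicate 3, the adjusted p in edgeR was 0.125 and 0.0846 for Mthfd2, 0.125 and 0.105 for Mthfd1l, and 0.0656 and 0.0504 for Shmt2. Without TSC1 replicate 2 it was 0.0982 for Mthfd2 and 0.0967 for Mthfd1l, and without TSC1 replicate 1 it was 0.134 for Mthfd2. Their log2 fold changes stayed at 1.51 to 1.97 for Mthfd2, 0.83 to 1.09 for Mthfd1l and 1.02 to 1.37 for Shmt2 when any 1 library was left out. The cytosolic genes Mthfd1 and Shmt1 were not called, and the difference between the compartments was not tested. Mthfd1, which makes the formyl donor used by Gart and Atic, had means of 24.2 and 25.8 TPM and a log2 fold change of 0.062 (adjusted p = 0.784), with an interval of -10.7% to 21.98%. Shmt1 had a log2 fold change of 0.033 (adjusted p = 0.944).

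**Figure D4:**
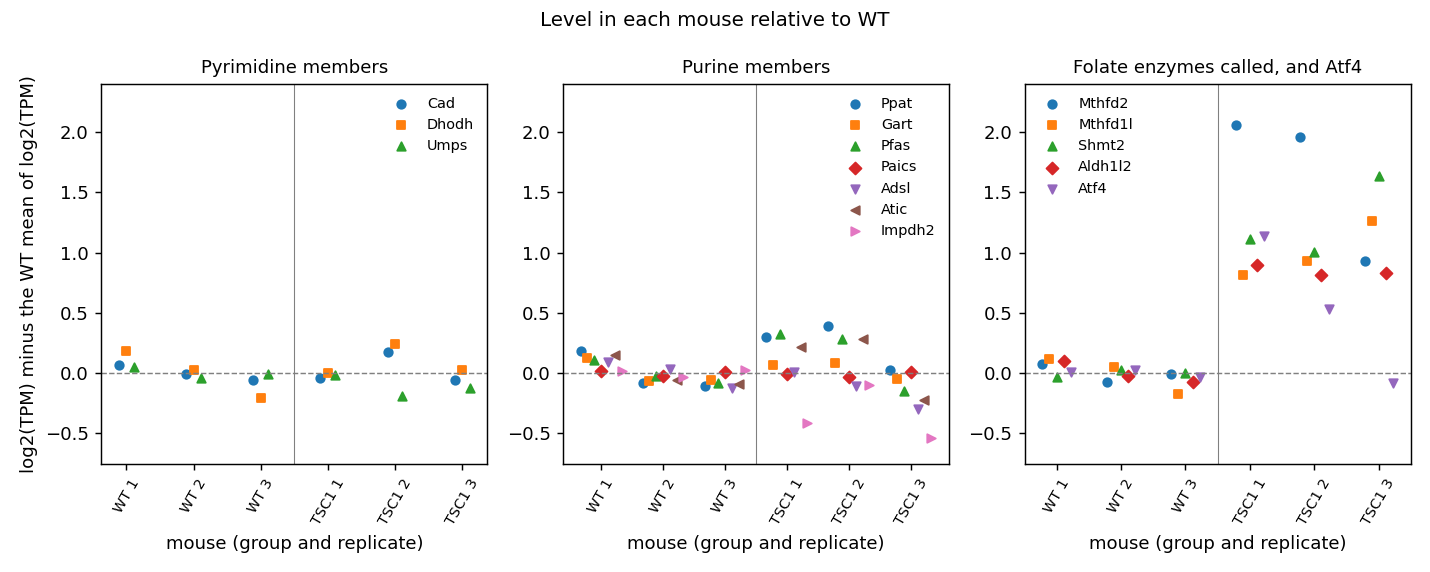
Level of each gene in every library relative to WT, as log2(TPM) minus the mean of the WT libraries, for the 3 pyrimidine members, the 7 purine members, and the 4 called folate enzymes with Atf4. The folate enzymes lie above 0 in all TSC1 libraries, whereas Atf4 lies below 0 in TSC1 replicate 3.

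Among the regulators, Mycn fell and 6 others were not called. Mycn, the MYC family factor of neural progenitors, was at 85.3, 92.2 and 85.4 TPM in WT and 65.8, 72.2 and 65.6 TPM in TSC1. The groups did not overlap, and the log2 fold change was -0.40 (SE 0.080, adjusted p = 0.0479). This call was lost without WT replicate 2 (adjusted p = 0.222), WT replicate 3 (0.161), TSC1 replicate 1 (0.194) or TSC1 replicate 2 (0.128), and by the scaling of DESeq2 within edgeR (0.05004), with log2 fold changes of -0.45 to -0.36. Myc had a log2 fold change of -0.056 (adjusted p = 0.810), and Rps6kb1, which encodes S6K1, one of 0.12 (adjusted p = 0.566). Atf4 was at 216.9, 219.0 and 210.4 TPM in WT and 474.0, 311.4 and 203.7 TPM in TSC1. TSC1 replicates 1 and 2 were above WT and TSC1 replicate 3 was below it. The log2 fold change of 0.57 (SE 0.23, adjusted p = 0.227 in edgeR) was not called. Without TSC1 replicate 3 it was 0.82 (adjusted p = 0.0101), in a fit that called 5.68% of all genes, against 1.52% in the main fit. That library was the lowest for Atf4, so a higher value follows from leaving it out and is not a separate result.

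Upstream of the members, none of the 5 tested genes of PRPP synthesis was called. All 5 had fitted values below 0, with a median log2 fold change of -0.14, while 49.3% of all genes tested lay above 0. The 5 include Prps1l3, whose expected counts were fractional in all 6 libraries. Its reads may be shared with other genes, so the 5 may not be separate observations. Prps1, the main PRPP synthetase, had means of 91.9 and 87.0 TPM (adjusted p = 0.500), and Prps2 had 23.1 and 20.6 TPM (adjusted p = 0.411). Prpsap2, which encodes a protein associated with the synthetase, had means of 48.5 and 42.2 TPM, and its groups did not overlap (adjusted p = 0.232). Downstream, 0 of 14 genes of AMP and GMP formation were called. Gmps, which makes GMP, had means of 48.8 and 49.9 TPM (adjusted p = 0.973), and Adss, the first step to AMP, had 173.5 and 172.0 TPM (adjusted p = 0.848). Adssl1, a paralogue of Adss, had low means of 2.97 and 1.64 TPM, with a log2 fold change of -0.87 (adjusted p = 0.174).

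None of the 5 purine salvage genes and none of the 9 tested genes of pyrimidine salvage and CTP formation was called. Hprt and Aprt, which return bases to nucleotides, had log2 fold changes of -0.055 (adjusted p = 0.785) and -0.18 (adjusted p = 0.360). Ctps, which makes CTP from UTP, had -0.072 (adjusted p = 0.639), and the uridine kinase gene Uck2 had -0.15 (adjusted p = 0.420). Dck, the deoxycytidine kinase gene of the purine salvage list, had 0.19 (adjusted p = 0.375). Among 8 tested genes of nucleotide breakdown 0 were called, and Dpyd, which starts pyrimidine breakdown, had the largest value at 0.23 (adjusted p = 0.581).

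In the deoxynucleotide list, 0 of 9 genes were called, and the groups did not overlap for 3 with TSC1 lower (Rrm2, Dtymk and Dut, beside 10.3% of all genes) and for 1 with TSC1 higher (Dctd, beside 12.3% of all genes). Dut, which removes dUTP, was at 43.5, 44.1 and 48.5 TPM in WT and 39.4, 36.9 and 34.1 TPM in TSC1 (log2 fold change -0.34, adjusted p = 0.118). Rrm2, the S-phase subunit of ribonucleotide reductase, was at 41.8, 39.5 and 39.1 TPM in WT and 30.8, 38.9 and 35.3 TPM in TSC1 (log2 fold change -0.23, adjusted p = 0.312). Rrm2b, the subunit of cells outside S phase, was at 20.3, 12.7 and 13.3 TPM in WT and 23.6, 23.8 and 16.6 TPM in TSC1 (log2 fold change 0.45, adjusted p = 0.247). Tyms, which makes dTMP, had a log2 fold change of -0.13 (adjusted p = 0.651). Tk1, the thymidine kinase of dividing cells, which stood in the pyrimidine salvage list, was at 9.95, 8.41 and 6.70 TPM in WT and 4.94, 5.14 and 5.62 TPM in TSC1. Its groups did not overlap, but the log2 fold change of -0.71 was not called (adjusted p = 0.110).

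Marker lists of other cell types differed in how many genes were called. The 13 markers of dividing cells all had fitted values below 0, none of them called and 7 at an unadjusted p below 0.05 in edgeR (beside 18% of all genes), with summed levels of 453 to 502 TPM in WT and 400.5 to 412 TPM in TSC1. Of 6 markers of subpallial neurons, 4 were called lower (beside 0.659% of all genes), with summed levels of 370 to 433 TPM in WT and 206 to 287 TPM in TSC1. The 4 choroid plexus markers summed to 1159 to 2445 TPM in WT and 27.8 to 856 TPM in TSC1, TSC1 replicate 3 having the highest mutant value, and none was called. Ttr made up most of that sum, and no choroid plexus marker was at 0. Of the remaining lists, 1 of 7 markers of neural progenitors was called lower (beside 0.659% of all genes). Among 6 markers of astrocytes, 2 were called higher (beside 0.859% of all genes), but 3 of the 6 had fitted values below 0. The median log2 fold change of the astrocyte list was 0.033. No marker of neurons, oligodendrocyte lineage, microglia, endothelial cells or red blood cells was called. The part of these markers in the values of Impdh2, Mycn and the deoxynucleotide genes was not tested.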

How the data were processed

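Telencephalon RNA of newborn mice, 3 per genotype (WT and TSC1), was sequenced with an unstranded poly(A) kit and paired-end reads. According to the methods and the submitters' notes, the authors checked reads with FastQC, aligned them to mm10 (GRCm38) with MapSplice2 and quantified genes with RSEM 1.2.12. The release of the gene annotation is not given in the sources used here. The deposited tables hold, per gene and library, an expected count, a TPM value and an FPKM value (not used for the results). The expected count is the RSEM estimate of reads per gene as the authors deposited it, and TPM as deposited is scaled by effective length.

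Expected counts were rounded to whole numbers, filtered with filterByExpr and scaled by TMM. TSC1 was compared with WT in edgeR 4.0.16 (R 4.3.3) by the quasi-likelihood test, with Benjamini-Hochberg adjustment over 13969 genes and a threshold of 0.05. TPM values are given as measured, without an offset. On simulated counts with 200 of 13969 genes changed by a log2 fold change of 1.5, the test recovered 97% of them, and 4.43% of its calls were false. Every simulated gene had the same spread between libraries. Smaller changes, such as those fitted for the members, were not simulated, so the recovery does not apply to them. Alternatives were DESeq2 1.42.0, limma 3.58.1 on log2(TPM + 1), other scalings and filters, effective length offsets, a replicate block and leaving out each library. Libraries of a group differed by more than sampling noise (chi-square per degree of freedom of 5.68 to 17.4).

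The 10 members and the lists of related genes and markers were chosen with earlier results of these data known. Named genes were all members, related genes called, the related gene with the largest fold change in each list, and a set of central enzymes and regulators chosen by name. Shmt1, Mthfd2l, Mtfmt, Slc25a32, Dut, Dtymk and Dctd were added after their values were seen. Gda, Nt5c2, Nt5c3b and Rps6kb2 were not analysed here. Gene positions are from GENCODE vM21, and similar transcripts were found with blastn 2.17.0.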

Additional observations from a re-analysis of the deposited data

How the results depend on the processing

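No member was called under any of the 15 alternatives. Over all genes, 212 were called, against 642 with DESeq2, 346 without a filter on low counts and 29 to 799 when a library was left out. The related genes called were 5, and 1 to 7 without a library. With the replicate number as a block, 551 genes were called and no member's call changed. Deviations of same-numbered libraries correlated at 0.27, -0.13 and 0.32, and 4 of 6 libraries correlated best with their own number. The labels do not say whether the numbers pair the animals, and these values do not settle it. The main test did not use the numbers. Signs changed only for genes whose log2 fold change lay within 0.1 of 0. Upper-quartile scaling gave log2 fold changes of -0.029 for Cad, -0.027 for Gart and -0.024 for Gmps. Cad was at -0.00026 with a minimum of 10 counts, -0.0010 with effective length offsets and -0.00094 with the replicate block. Without a library, the log2 fold change ranged from -0.083 to 0.053 for Cad, -0.028 to 0.12 for Dhodh, -0.029 to 0.044 for Gart, -0.028 to 0.21 for Atic, -0.024 to 0.029 for Gmps, -0.12 to 0.044 for Adss, -0.11 to 0.0030 for Hprt and -0.12 to 0.035 for Myc. The ratio of summed TPM then ranged from 0.960 to 1.01 for the pyrimidine genes and from 0.993 to 1.05 for the 7 purine genes. The cause of these shifts was not tested. With 3 animals per group, the largest unadjusted p among genes called was 0.000739, so that an interval that leaves out 0, as for Impdh2, was not enough for a call.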
